A study of Rattus norvegicus with 9 samples.

Results

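Transthyretin (Ttr) and 7 further genes that mark the choroid plexus (Kl, Folr1, Aqp1, Clic6, Kcnj13, Otx2 and Prlr) were followed across 9 arrays of rat hypothalamus. Members were all probe sets (groups of short probes against 1 transcript) to which the platform annotation gave 1 of these symbols and no other. Of the 8 genes, 7 had such a probe set, which gave 11 probe sets of 31042 tested, and Clic6 had 0 and was not analysed here. One further probe set, which lists Ttr beside metallothionein genes, was left out because it names several genes.

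The study compared 4 male rats on a noodle diet with seasonings with 5 male rats on that diet with the seasonings left out, here called the control diet, all aged 13 weeks. In both diets instant noodle made up 30% of the weight and fat 26% of the energy, and the labels give the feeding time as 30 days in one place and 4 weeks in another. Rats were pair-fed some 60 g of food daily per kg of body weight. The strain is not given here, nor whether tissue lining the hypothalamus was trimmed at dissection, and p-values measure only the spread between these samples.

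The choroid plexus is the vascular fringe inside the brain ventricles whose epithelium secretes cerebrospinal fluid. Transthyretin, its best known product, carries thyroxine and, with the retinol-binding protein Rbp4, retinol. The third ventricle runs through the hypothalamus, so fragments of its choroid plexus, its ependymal wall or the meninges under the brain can be taken along in a dissection. As for the tissue itself, the arrays carried high values of the hypothalamic peptide genes Pmch (11.85 to 12.37) and Avp (10.49 to 11.84). In whole tissue, fewer cells of a type and less RNA per cell cannot be told apart.

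The promoter of Ttr is shown because its level varied most among these genes. The window holds 250 bases before and 50 after the annotated start (RefSeq, GRCr8, chr18:12218508-12218807, plus strand), with the bases from the start onward in capitals.

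Ttr: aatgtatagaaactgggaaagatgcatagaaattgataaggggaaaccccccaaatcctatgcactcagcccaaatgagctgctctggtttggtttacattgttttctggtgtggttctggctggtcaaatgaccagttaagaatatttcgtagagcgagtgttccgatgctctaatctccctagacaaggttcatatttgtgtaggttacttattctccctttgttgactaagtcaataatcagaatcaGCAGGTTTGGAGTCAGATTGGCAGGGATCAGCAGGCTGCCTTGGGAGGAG

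Windows for 5 of the 8 genes (Ttr, Kl, Aqp1, Kcnj13 and Prlr, the last with 2) were searched on both strands for TAATCC, a core bound by homeodomain factors of the OTX kind such as Otx2, and for GTAAACA, bound by forkhead factors. Neither string occurred in any of these 6 windows, while 7.17% and 3.78% of 33469 RefSeq windows of this length held them. This says only that these letters are not in these windows.

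Ttr was the member that moved, while most of its companions hardly differed between rats in the deposited values. On the log2 scale Ttr spanned 1.98 units over the 9 rats. The only other member probe set with a range above 0.05 (a limit chosen after values had been seen, here called variable) was 1 of 3 for Prlr, the prolactin receptor, which spanned 0.35. The other 9 ranged over 0.00031 to 0.0011 log2 units and are called compressed (range under 0.01). Over all probe sets, 3.94% were variable and 95.9% compressed, and none of the 11 members lay in between.

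**Figure D1:**
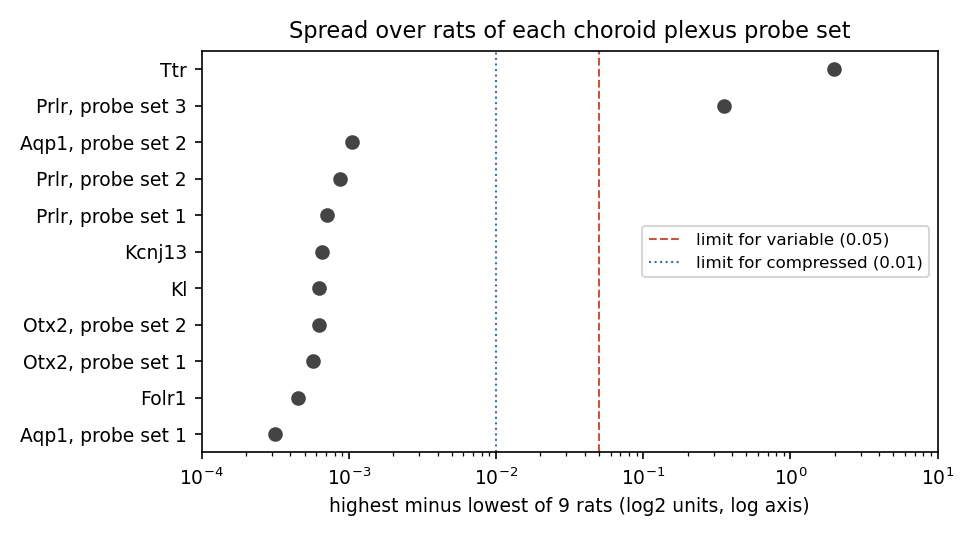
Highest minus lowest deposited value over the 9 rats (log2 units, log axis) for each of the 11 member probe sets, with the limits for variable (0.05) and compressed (0.01). Ttr at 1.98 and 1 Prlr probe set at 0.35 lie above the upper limit, and the other 9 lie at 0.0011 or below.

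The compressed members included the genes with the most defined roles in this epithelium. Kl (klotho, a co-receptor for a phosphate-regulating growth factor) had a median of 5.96, and Folr1 (the folate receptor that carries folate into the cerebrospinal fluid) one of 6.66. Kcnj13, an apical potassium channel, had a median of 6.31. Aqp1, the apical water channel, had its brighter probe set at 6.96, and Otx2, a homeodomain factor needed to form the choroid plexus, had its brighter one at 6.16. All of these are deposited log2 values, whose order between genes is not a comparison of transcripts.

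A compressed value does not show that the transcript was constant. Among genes with both kinds of probe set, a variable and a compressed probe set of 1 gene had a median correlation over the 9 rats of 0.462 (570 pairs), and 2 variable probe sets of 1 gene one of 0.912 (108 pairs). The quartiles of the 570 pairs were 0.0215 and 0.723, so compressed values kept part of a gene's order of rats in some pairs and almost none in others. Kl, Folr1, Aqp1, Kcnj13 and Otx2 had no variable probe set, so these pairs do not cover them. Against Ttr, the 9 compressed members had correlations from -0.452 (Prlr) to 0.458 (another Prlr probe set) with a median of 0.0233. Over all 29759 compressed probe sets the median was -0.0468 and the middle range ran from -0.306 to 0.218. Of the lists described further on, the 8 compressed probe sets of the meningeal list had a median of 0.335, and the 36 of the further choroid plexus list one of -0.0489, from -0.783 to 0.577. These are descriptions, without a test.

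Comparing the diets, Ttr overlapped widely. On the noodle diet its deposited log2 values were 7.67, 7.22, 5.68 and 7.19 in rats 1, 4, 7 and 13. On the control diet they were 7.15, 6.48, 7.26, 5.82 and 6.07 in rats 2, 5, 8, 11 and 14. High and low rats stood on both diets: the highest and the lowest of all 9 were both noodle-diet rats. The means were 6.94 ± 0.87 (SD, n = 4) and 6.56 ± 0.64 (SD, n = 5), a difference (noodle minus control) of 0.38 (SE 0.47, 95% interval -0.72 to 1.48), smaller than either group's SD (limma adjusted p = 1.0). The size rested on single rats. Without noodle-diet rat 7 it was 0.80, without noodle-diet rat 1 it was 0.14, and without control rat 11 it was 0.20.

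The variable Prlr probe set differed less still. Its log2 values were 7.07, 7.21, 7.43 and 7.13 in noodle-diet rats 1, 4, 7 and 13, and 7.35, 7.14, 7.16, 7.15 and 7.39 in control rats 2, 5, 8, 11 and 14. Noodle-diet rat 7 and control rats 2 and 14 stood at 7.35 or above, and the other 6 rats at 7.21 or below. The means were 7.21 ± 0.15 (SD, n = 4) and 7.24 ± 0.12 (SD, n = 5), a difference of -0.028 (SE 0.087, 95% interval -0.23 to 0.17; limma adjusted p = 1.0). The difference was above 0 when noodle-diet rat 1 was left out (0.018), and likewise with control rat 2 (0.00046) or 14 (0.0098) left out. The 2 other Prlr probe sets were compressed.

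**Figure D2:**
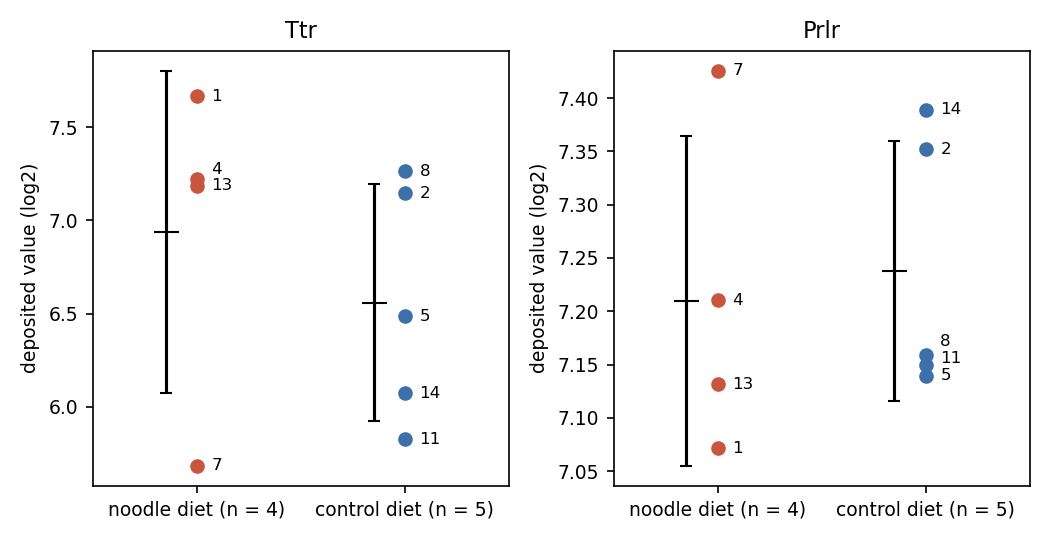
Deposited log2 values of Ttr (left) and the variable Prlr probe set (right) in each rat, with rat numbers beside the points and, in black, the mean ± SD of each diet. The noodle-diet rats span 5.68 to 7.67 for Ttr and 7.07 to 7.43 for Prlr, and the control rats lie within them, at 5.82 to 7.26 and 7.14 to 7.39.

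As a group, the members gave no diet call. By limma 0 of 11 member probe sets had an adjusted p under 0.05, as did 0% of all 31042. At an unadjusted p under 0.05 there were again 0 of 11, against 2.29% of all probe sets and 0.899% of the variable ones, and 0 of 11 had diets that did not overlap, against 0.567%. The noodle-diet mean was higher for 4 of 11 members, against 48.0% of all probe sets, and for 1 of the 2 variable members, Ttr, against 51.9% of variable probe sets, with a median difference of -6.8e-05 for the members and -4.6e-06 for all. Such counts follow the scaling, since a common array median made 69.7% of all probe sets and 4 of 11 members higher, and quantile normalization 23.4% and 3 of 11. Counts of higher and lower genes below are therefore given as deposited, with no direction read from compressed ones. The 9 compressed members differed by -0.00019 to 0.00016, which cannot be read as fold changes. Without control rat 5 the Folr1 probe set reached an unadjusted p under 0.05, and none of the others did with any rat left out.

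A further list of 33 choroid plexus genes gave a similar picture, with 29 measured, 14 higher and 15 lower on the noodle diet, and 0 with an adjusted p under 0.05 by limma (1, Car12, a carbonic anhydrase on a compressed probe set, at an unadjusted p of 0.0078). Of the 29 genes 25 were compressed, with ranges of 0.00021 to 0.0015. Among these 25 were Kcne2 (a potassium channel subunit), Cldn2 (a tight junction claudin of this epithelium), Sostdc1, Calml4 and Tmem72. The summed level of the 29, taken on the linear scale and given as log2, ran from 12.00 to 12.12 on the noodle diet and from 12.01 to 12.16 on the control diet. For the 6 measured members besides Ttr it ran from 9.16 to 9.25 and from 9.18 to 9.24, so the diets overlapped in each. Compressed genes hardly move such a sum. The first could therefore vary almost only through its 4 variable genes, and the second through Prlr. The overlap is thus no separate evidence on the level of choroid plexus transcripts.

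The 4 variable genes of that list are all made by other cells too. Col8a2, a collagen of basement membranes also made by meningeal fibroblasts, spanned 6.32 to 7.93 and correlated with Ttr at 0.835 over the 9 rats. Ecrg4, a secreted peptide precursor also found in meningeal cells, spanned 6.61 to 7.29 (r = 0.541). Enpp2, the lysophospholipase autotaxin, also made by oligodendrocytes, spanned 9.49 to 10.14 (r = 0.461). Htr2c, a serotonin receptor also made by hypothalamic neurons, spanned 9.54 to 9.80 and ran the other way (r = -0.506).

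Rats with more Ttr tended to have more of the meningeal transcripts too, a relation that missed the threshold after correction. Of 27 meningeal and fibroblast markers 25 were measured and 22 were variable, and 22 of 22 correlated positively with Ttr, from 0.628 (Slc22a8) to 0.854 (Col3a1), with a median of 0.757. These 22 share the 9 rats and vary together, so they are not 22 separate observations. The lists were chosen with earlier results of these data known. This count and the p-values for list scores below therefore do not test lists set in advance. Among all 841 variable named genes outside the members 70.5% were positive, with a median of 0.305. The widest meningeal genes were Ptgds, the prostaglandin D synthase of meninges, choroid plexus and oligodendrocytes (10.22 to 12.76, r = 0.736), the sulfate transporter gene Slc13a4 (6.24 to 8.40, r = 0.740), the matrix proteoglycan gene Ogn (6.80 to 8.71, r = 0.811) and the organic anion transporter gene Slc22a6 (5.75 to 7.44, r = 0.706). The summed level of the 25, as log2, ran from 12.26 to 13.71 on the noodle diet and from 12.16 to 13.65 on the control diet. Ptgds, which other cells make too, had the highest values of the 25 and weighed most in this linear sum. The part of meningeal RNA in the Ttr values was not tested beyond these relations.

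A score per rat, the mean deviation of the 22 variable meningeal genes from their means over the 9 rats, was set against Ttr. The 3 rats lowest in Ttr, noodle-diet rat 7 and control rats 11 and 14, had scores of -0.480, -0.517 and -0.545. The rat highest in Ttr, noodle-diet rat 1, had the highest score, 0.617. Control rats 8, 2 and 5 and noodle-diet rat 13 lay between, at 0.508, 0.403, 0.258 and 0.113. The order was not the same throughout, since control rat 5 had less Ttr than noodle-diet rat 13 (6.48 and 7.19) at a higher score. Noodle-diet rat 4 departed furthest, with a high Ttr of 7.22 and a low meningeal score of -0.356. Its pars tuberalis and anterior pituitary score, 0.963, was the highest of the 9 rats, and its microglia score, -0.174, the lowest. Over the 9 rats that pituitary score had r = 0.0229 with Ttr. Why noodle-diet rat 4 departed was not tested. The widest gap in Ttr between neighbouring rats was 0.661, between control rats 5 and 2, within a range of 1.98, so the rats were not treated as separate clusters.

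Over the 9 rats Ttr correlated with the meningeal score at Pearson r = 0.785 (exact permutation p = 0.0203, adjusted p = 0.0811 over 8 tissue lists, 2-sided) and Spearman rho = 0.783 (exact permutation p = 0.0172, adjusted p = 0.0689). The relation therefore missed the threshold after correction. Without the 2 rats farthest from the median of Ttr, noodle-diet rat 7 and control rat 11, r was 0.640 (exact permutation p = 0.103, adjusted p = 0.302). The relation was thus weaker without them, but they were chosen as extremes of Ttr, and a narrower range can lower r by itself. With each diet's mean taken off, r was 0.834 (permutation p = 0.0068, adjusted p = 0.0274). These 2 p-values are approximate, because the residuals of both diets were shuffled together. Without noodle-diet rat 4, the rat that departed furthest from the relation, r was 0.924 (exact permutation p = 0.0029, adjusted p = 0.0232). Spearman rho was then 0.833 (exact permutation p = 0.0154, adjusted p = 0.0615), short of the threshold. Leaving out 5 markers that choroid plexus, oligodendrocytes or astrocytes also make (Ptgds, Igf2, Igfbp2, Slc13a4 and Gjb6), an alternative chosen after seeing the data, gave r = 0.797 over 17 genes (exact permutation p = 0.0183, adjusted p = 0.127 over the 7 lists that could then be scored). Whether choroid plexus also makes any of these 17 was not tested, so this score does not separate it from meninges.

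The score of the 4 variable choroid plexus genes outside the members gave r = 0.808 (exact permutation p = 0.0131, adjusted p = 0.0811, 2-sided) and Spearman rho = 0.783 (exact permutation p = 0.0172, adjusted p = 0.0689). Without noodle-diet rat 7 and control rat 11 it was 0.717 (exact permutation p = 0.0692, adjusted p = 0.302). Deviations were not scaled, so Col8a2, with a range of 1.60 log2 units, weighed most in this score. Ecrg4, Enpp2 and Htr2c had ranges of 0.68, 0.65 and 0.26. Col8a2 alone correlated with the meningeal score at 0.979. The 4-gene score and the meningeal score ran together almost wholly (r = 0.965), which leaves these scores hardly separable over 9 rats. With the meningeal score held fixed, the partial correlation of Ttr was 0.309 with the 4-gene score, and with that score held fixed it was 0.0377 with the meningeal one. At a fixed meningeal score it was 0.529 with Col8a2, -0.074 with Ecrg4, -0.017 with Enpp2 and 0.270 with Htr2c, given as descriptions.

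**Figure D3:**
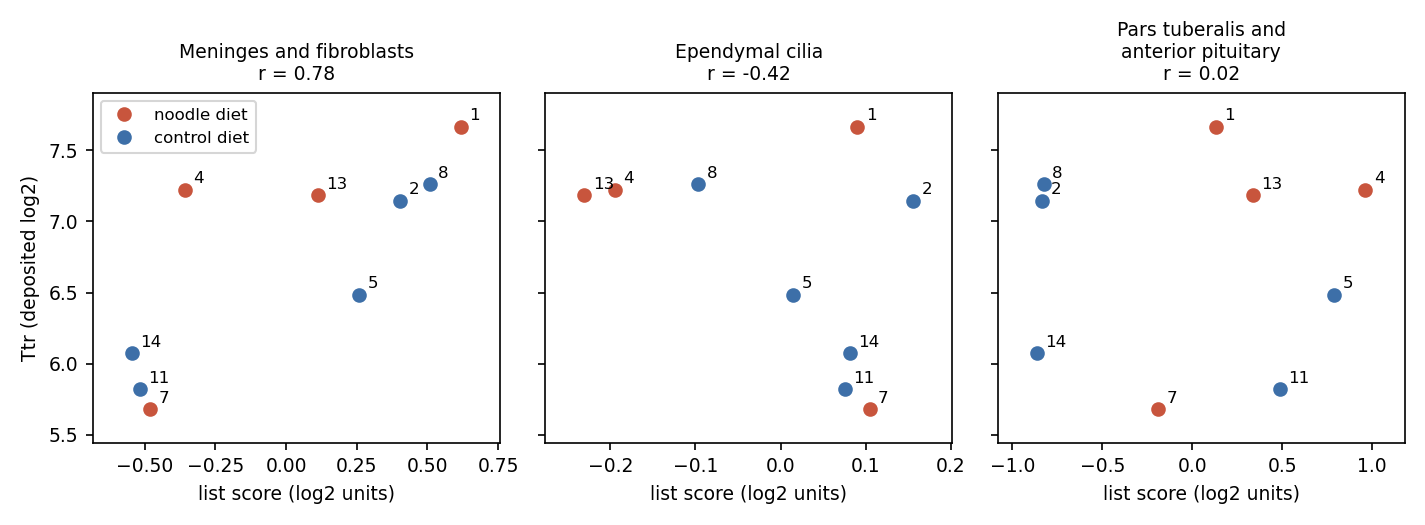
Ttr (deposited log2) against the score per rat (log2 units) of meningeal and fibroblast, ependymal cilia, and pars tuberalis and anterior pituitary genes, with 1 point per rat and rat numbers beside the points. Ttr has r = 0.785 with the meningeal score (adjusted p = 0.0811 by exact permutation), with noodle-diet rat 4 high in Ttr at a low score. Ttr has r = -0.418 and r = 0.0229 with the other 2 scores. The last score holds only Tshb, Cga and Nmu.

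Other tissues along the ventricle and below the hypothalamus correlated less with Ttr, and whether their correlations differed from the meningeal one was not tested. The 5 variable genes of ependymal cilia were negative throughout, from -0.582 (Dynlrb2, a dynein light chain) to -0.248 (Cfap144), and their score had r = -0.418 (exact permutation p = 0.259, adjusted p = 0.347) and rho = -0.350 (exact permutation p = 0.359, adjusted p = 0.574). Tanycyte genes, of the cells that line the floor of the third ventricle, had a score with r = 0.615 (exact permutation p = 0.0822, adjusted p = 0.219) and rho = 0.60 (exact permutation p = 0.0968, adjusted p = 0.194). Their strongest member, Vim (r = 0.664), is an intermediate filament gene that meningeal cells make too, and it correlated with the meningeal score at 0.953. Crym, a thyroid hormone binding protein of the cytosol, correlated with Ttr at 0.632 and with the meningeal score at 0.534. Vcan, Scn7a and Fndc3c1 correlated with Ttr at 0.402, 0.0837 and 0.101, and with the meningeal score at 0.141, -0.0409 and 0.0091. The pars tuberalis and anterior pituitary score, with Tshb, Cga and Nmu variable, had r = 0.0229 (exact permutation p = 0.952, adjusted p = 0.952) and rho = 0.10 (exact permutation p = 0.810, adjusted p = 0.810). Gh1, Prl, Lhb, Fshb, Pitx1, Pou1f1 and Ghrhr of this list were compressed and did not enter the score. Anterior pituitary tissue was therefore not followed through those genes.

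Among brain cell types, the oligodendrocyte score had r = 0.462 (exact permutation p = 0.214, adjusted p = 0.347) and rho = 0.717 (exact permutation p = 0.0369, adjusted p = 0.0983), with 8 of 8 genes positive, from 0.222 (Opalin) to 0.672 (Cldn11). The partial correlation with Ttr was -0.0297 for oligodendrocytes at a fixed meningeal score, and 0.716 for meninges at a fixed oligodendrocyte score. These partial values are descriptions that rest on Pearson r. By Spearman the oligodendrocyte and meningeal scores stood closer, at rho = 0.717 and 0.783. The microglia score had r = 0.160 (exact permutation p = 0.676, adjusted p = 0.773) and rho = 0.183 (exact permutation p = 0.644, adjusted p = 0.736), although P2ry12, a purinergic receptor gene of microglia, stood at 0.706. The neuropeptide score had r = -0.422 (exact permutation p = 0.261, adjusted p = 0.347) and rho = -0.20 (exact permutation p = 0.613, adjusted p = 0.736), and without noodle-diet rat 1 these were r = -0.149 and rho = 0.143. Among its genes were Nts (neurotensin) at -0.613 and Cartpt at 0.761. The variable probe set of Hbb, the erythroid globin gene, had r = 0.408 and that of Rgs5, a pericyte gene, -0.238, and these lists had too few variable genes for a score.

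**Figure D4:**
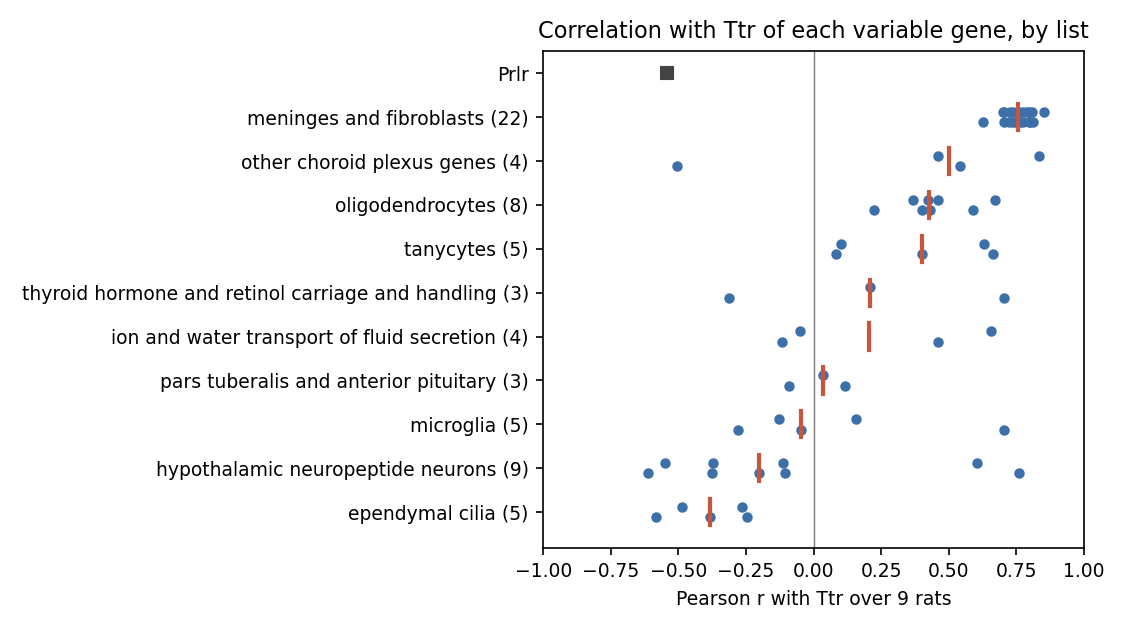
Pearson r with Ttr over the 9 rats for the variable Prlr probe set (square) and for each variable gene of the lists (points, with gene counts in brackets and the list median as a bar). The 22 meningeal genes sit together between 0.628 and 0.854, the 5 ependymal cilia genes lie below 0, and Prlr lies at -0.543.

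Prlr, the only other member with a variable probe set, ran against Ttr. It was highest, at 7.43, in noodle-diet rat 7, the rat lowest in Ttr, and lowest, at 7.07, in noodle-diet rat 1, the rat highest in Ttr. The correlation was r = -0.543 (exact permutation p = 0.135, 2-sided) and rho = -0.567 (exact permutation p = 0.121), and as the only pair that could be tested it has the same adjusted values. Without noodle-diet rat 7 and control rat 11, r was -0.596 (exact permutation p = 0.126). Leaving out control rat 11 alone took it to -0.748 (exact permutation p = 0.0308), leaving out noodle-diet rat 7 alone to -0.333 (exact permutation p = 0.423), and leaving out noodle-diet rat 1 alone to -0.416 (exact permutation p = 0.268). Of 1222 variable probe sets other than that of Ttr, 66 (5.4%) had a lower r with Ttr. Among the tissue scores Prlr was most negative with tanycytes (r = -0.778), oligodendrocytes (-0.648) and the 4 choroid plexus genes (-0.629), also descriptions. The prolactin receptor is also made by hypothalamic neurons, and which cells gave this signal was not tested. The 2 compressed Prlr probe sets did not share a sign with Ttr (0.458 and -0.452).

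The genes whose pattern was most like that of Ttr, ranked by Pearson r over the 9 rats among 841 variable named genes, were Htra3 (0.870), Itgb1 (0.855), Col3a1 (0.854), Ifitm3 (0.848), Mfap4 (0.844), Cpxm2 (0.841), Col8a2 (0.835), Slc38a2 (0.835), S100a6 (0.834) and Efemp1 (0.831). Col3a1 is a fibrillar collagen, and Mfap4 and Efemp1 are proteins of elastic and matrix fibres. Htra3 is a secreted serine protease, Itgb1 the common beta integrin and Slc38a2 a neutral amino acid transporter. Col3a1 is also 1 of the 22 genes of the meningeal score. The other 9 correlated with that score at 0.858 (Itgb1) to 0.979 (Col8a2). Ttr itself, at 0.785, had 220 of 1194 variable probe sets outside the meningeal list (18.4%) above it in correlation with that score. The 5 least like Ttr were Nedd4 (-0.818), Esyt2 (-0.772), Got1 (-0.748), Acot7 (-0.718) and Cdh10 (-0.706). Neither set held a member.

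Genes that act with the members were read by diet and against Ttr. Of 14 genes of thyroid hormone and retinol handling 12 were measured, 5 higher and 7 lower on the noodle diet, and 0 passed limma at an adjusted or an unadjusted p under 0.05. Rbp4, which binds transthyretin, measured 7.49 ± 0.56 (SD, n = 4) on the noodle diet and 7.54 ± 0.46 (SD, n = 5) on the control diet. It correlated with Ttr at 0.703 and with the meningeal score at 0.974. Stra6, the retinol uptake receptor, measured 7.44 ± 0.16 and 7.25 ± 0.34 (r = 0.208 with Ttr), and Slco1c1, the thyroxine transporter of brain capillaries, 8.93 ± 0.041 and 8.79 ± 0.17 (r = -0.312).

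In ion and water transport of fluid secretion 11 of 13 genes were measured, 8 higher and 3 lower, with 0 past an adjusted or unadjusted p of 0.05 by limma. Aqp4, the water channel of astrocytes and ependyma, measured 11.05 ± 0.11 and 10.99 ± 0.054 (r = 0.657 with Ttr), and Slc12a2, a sodium, potassium and chloride cotransporter, 9.95 ± 0.030 and 9.93 ± 0.13. Of 6 measured klotho partners 3 were higher and 0 passed after correction, with Fgfr3 at an unadjusted p of 0.0461 on a compressed probe set. The 6 measured folate genes (1 higher) and the 8 genes of prolactin receptor signalling (4 higher) were all compressed, and 0 had an adjusted or unadjusted p under 0.05 by limma. The pituitary hormone Prl, the ligand of the prolactin receptor, was among them, at a median of 5.82.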

How the data were processed

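The deposited file held log2 values, made by the authors from an Affymetrix rat array, for 31099 probe sets and 9 arrays. That the scale is log2 was read from the values (5.13 to 13.7); how probe sets were summarised and normalized is not stated in the labels or the file. Array medians lay between 6.777 and 6.785, correlations between arrays from 0.997 to 0.999, and 0 of 36 pairs of arrays were identical, so values were used as deposited. After 57 control probe sets were left out, 31042 remained, of which 20826 had 1 symbol, 436 several and 9780 none. Of those with 1 symbol, 20758 matched a rat gene table (GRCr8, names only).

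Diets were compared with limma 3.58.1 (R 4.3.3; lmFit, eBayes with intensity trend, Benjamini-Hochberg over 31042, threshold 0.05), checked on simulated data. Scores took 1 probe set per gene, the variable one of highest mean, and needed 2 variable genes. Correlations used exact permutation over all pairings, which is only approximate where each diet's mean was taken off. All members are named, with the 10 genes most and the 5 least like Ttr, up to 4 genes of largest range per tissue list and up to 4 of lowest p per pathway list; others named were chosen after their values were seen. Members and lists were chosen with earlier results of these data known. The number of arrays limits the precision.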

Additional observations from a re-analysis of the deposited data

Results flagged for a closer look

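Of 50 groups checked (2 diets for Ttr, Prlr, 8 list scores and the 15 genes most and least like Ttr), 1 had a value standing apart from the remaining rats, and about 2.5 such groups would come by chance (1 in 20). In control rat 2, Esyt2, a membrane contact protein and 1 of the 5 genes least like Ttr, stood at 8.42, with the other control rats at 8.47 to 8.49. No value of Ttr or Prlr stood apart in this way.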

How the results depend on the processing

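The diet difference of Ttr stayed positive and short of the threshold in 7 of 7 alternatives (quantile normalization, a common array median, no intensity trend, robust eBayes, a filter on low means, a floor at the 20th percentile, array weights), from 0.381 to 0.429, and in 9 of 9 with single rats left out, from 0.139 to 0.80. That of Prlr ran from -0.046 to -0.028, and from -0.10 to 0.018 with single rats left out. For both genes, no intensity trend, robust eBayes and the filter on low means could not change the difference, only its p-value. Quantile normalization and a common array median hardly moved that of Ttr (0.381 each), as array medians were already close. Limma called 0 probe sets in each of these fits. At an unadjusted p under 0.05 it had 712 as deposited, 127 after quantile normalization, 16 with a common array median, 475 without low means, 423 with the floor, and 689 to 1155 with single rats left out. Among the members, 0 to 1 member probe sets had an unadjusted p under 0.05 with single rats left out. With each diet's mean taken off, the correlation of Ttr was 0.834 with the meningeal score and 0.844 with the 4 choroid plexus genes. Both had an adjusted p under 0.05, by a permutation that is only approximate for such residuals. For the pituitary score the correlation turned to -0.105. With single rats left out, the correlation of Ttr ran from 0.718 to 0.924 for meninges, from 0.740 to 0.880 for the choroid plexus genes, from -0.748 to -0.333 for Prlr, from -0.156 to 0.167 for pituitary, from -0.0117 to 0.373 for microglia and from -0.558 to -0.149 for neuropeptides. Meninges and choroid plexus genes passed by Pearson, but not by Spearman (exact permutation adjusted p = 0.0615 for each), without noodle-diet rat 4. That rat had departed furthest from the meningeal relation. Prlr passed without control rat 11. None of these passed with any other single rat left out. Without the 2 rats farthest from the median of Ttr, microglia turned to -0.263. The cause was not tested. Limits of 0.02 and 0.2 for a variable probe set chose the same genes of the meningeal and choroid plexus lists, so these scores could not change. Without genes shared with other cell types the choroid plexus score could not be fitted, as it had no variable gene left. No paired analysis was possible because the labels name paired feeding but not which rats were paired, and the diets share no rat number, and the files give no slide or scan batch.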
